A study of Rattus norvegicus with 6 samples.

Results

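The RNA levels described here are those of the matrix metalloproteinase (Mmp), tissue inhibitor of metalloproteinases (Timp), ADAM, ADAMTS and ADAMTS-like (Adamtsl) genes in the thoracic aorta of spontaneously hypertensive rats (SHR) and of Wistar-Kyoto rats (WKY). SHR were bred from Wistar-Kyoto stock for raised blood pressure, and WKY serve as their normotensive counterpart. The rats of both strains were 24 weeks old and untreated, their tail blood pressure had been measured, and their aortae had been cleaned of fat and connective tissue. Each strain had 3 Affymetrix Rat Gene 2.0 ST arrays, and nothing in the labels says that each array held a different rat, so p-values speak of the spread among arrays, which may be technical. Members were the probe sets, groups of short probes that report 1 transcript, whose platform annotation named 1 gene with a symbol of these families followed by a number. There were 67 such probe sets for 67 genes among 28879 on the array: 20 Mmp, 4 Timp, 24 Adam, 14 Adamts and 5 Adamtsl.

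Matrix metalloproteinases are zinc-dependent enzymes, secreted or held at the cell surface, that cut collagens, elastin and other proteins of the extracellular matrix, and the arterial wall depends on them when it is remodelled. TIMPs bind and block their active site. ADAM proteins are membrane enzymes that release the outer part of other membrane proteins, ADAMTS proteins are secreted enzymes that cut proteoglycans and procollagens, and ADAMTS-like proteins share their ancillary domains but have no protease domain.

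Levels are log2 values of the RMA method, which corrects background, equalizes the arrays and combines the probes of a probe set. No detection call exists, and the medians of the 6 arrays, from 2.29 to 2.52, serve only as a guide: a level under 2.52 is not shown to lie above background. Probes differ in how well they bind, so levels of different genes are not compared as amounts of RNA. WKY replicate 3 stood apart as an array: its median was 2.52, against 2.29 to 2.33 on the other arrays. Its levels had the smallest spread (SD 2.12 against 2.22 to 2.27) and the lowest mean correlation with the other arrays (0.971 against 0.976 to 0.984). Fitted array weights gave it 0.22, against 0.69 to 2.05 for the others. The reason was not tested. The arrays differed in the tissue they held. Smooth muscle markers (5 of 7 listed genes had a named probe set) summed to log2 levels of 47.8 to 49.6 in SHR and 48.9 to 49.2 in WKY, and Myh11, the smooth muscle myosin, lay at 10.65 to 10.90 in SHR and 10.86 to 10.89 in WKY, while the listed Acta2 and Cnn1 were not analysed here. White adipocyte markers (7 of 7) summed to 30.0 to 55.5 in SHR and 43.7 to 53.6 in WKY, highest on SHR replicate 1 and lowest on SHR replicate 3. The endothelial, fibroblast and macrophage markers were highest and lowest on the same 2 arrays. Their sums were 15.8 to 24.6, 44.5 to 53.2 and 18.9 to 33.3 in SHR. In WKY they were 21.2 to 23.9, 49.8 to 51.6 and 23.9 to 29.9. Neuronal markers stood high on SHR replicate 1 only, where Snap25, Dbh and Th had levels of 7.61, 6.40 and 5.92, against 1.53 to 2.10 on SHR replicate 2 and 1.13 to 2.80 on the WKY arrays. On SHR replicate 3 they lay at 1.58 to 2.02. Skeletal and cardiac muscle markers (5 of 8) summed to 15.6 to 15.9 in SHR and 16.1 to 19.1 in WKY. For 4 of these 5 the strains did not overlap, all lower in SHR, which is 80% beside 12.1% of all tested probe sets. Brown adipocyte markers (5 of 5) summed to 16.5 to 23.9 in SHR and 21.7 to 31.9 in WKY. Both sums were highest on WKY replicate 1. In a bulk sample, fewer cells of a type and less RNA per cell cannot be told apart.

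No member passed the comparison of SHR with WKY, in which limma was fitted over all 21659 probe sets above a floor on the mean level and an adjusted p under 0.05 was the threshold. Over all tested probe sets 0.0693% passed. Of the 67 members 53 were above the floor and were tested, and 14 were too dim. At an unadjusted p under 0.05 there were 7 members, 2 higher in SHR (Timp1 and Adamtsl3) and 5 lower (Adamtsl4, Adamts10, Adamts15, Adamts9 and Adamts3), which is 13.2% of the tested members beside a background of 5.55%. By direction the background was 3.01% higher and 2.54% lower. On 9 of the 53 tested members the strains did not overlap, 3 higher and 6 lower in SHR. That is 17% beside a background of 12.1% (6.48% higher and 5.61% lower). Adam5, too dim to be tested, also did not overlap, at 0.73 to 1.04 in SHR and 1.09 to 1.27 in WKY. With 1 array left out, the members at an unadjusted p under 0.05 numbered from 2, without WKY replicate 2, to 8, without WKY replicate 1. The shares of all tested probe sets in those fits were 5.72% and 5.08%, so without WKY replicate 2 the members did not exceed the background. The median difference over the tested members was -0.02 on the log2 scale, beside -0.01 over all tested probe sets.

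**Figure D1:**
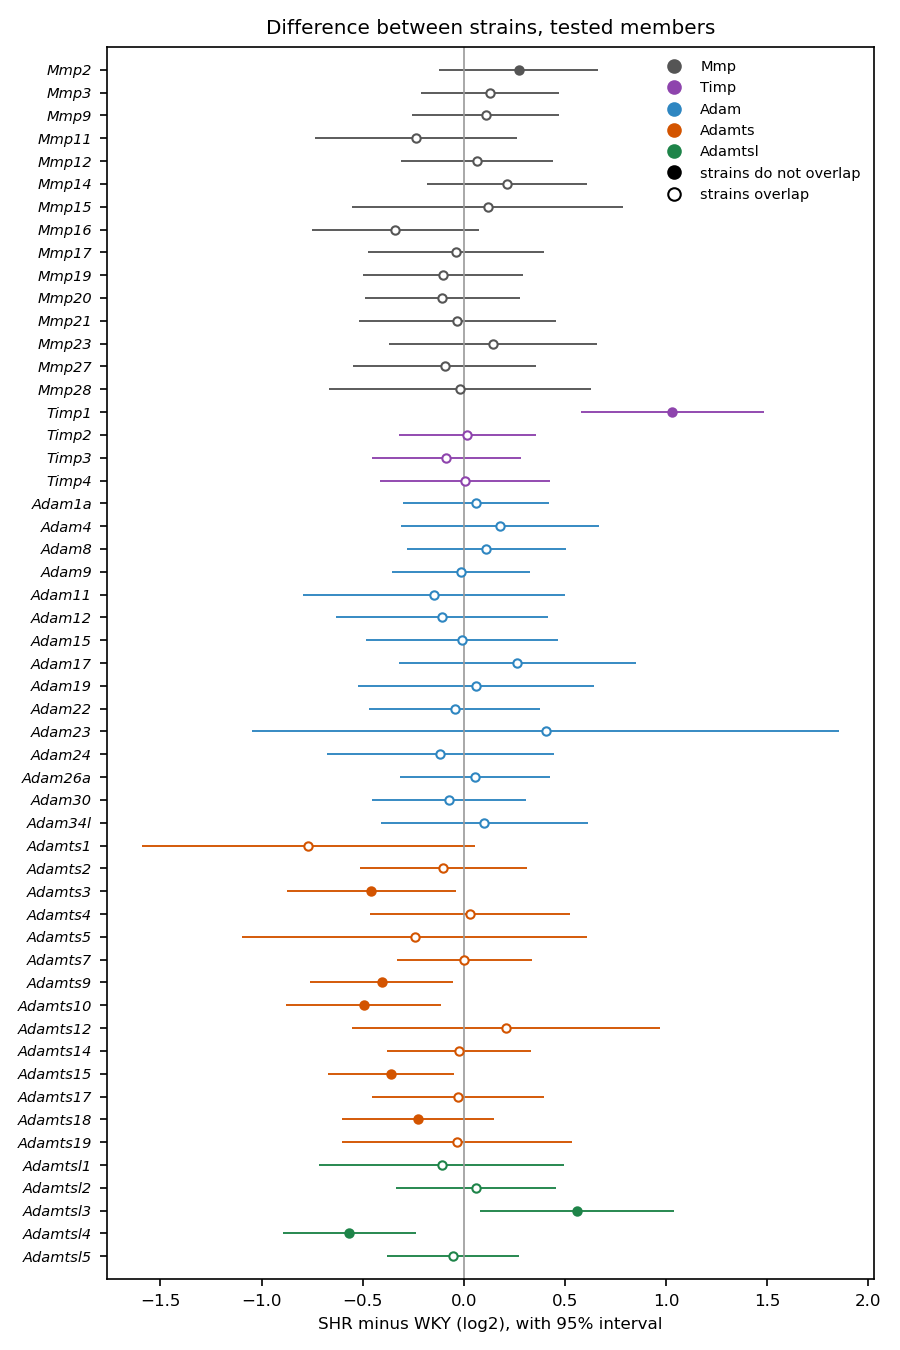
Difference in log2 level, SHR minus WKY, of the 53 tested members, with the 95% interval of the limma fit, coloured by family. Filled points mark the 9 members whose strains do not overlap. Timp1 at 1.03 has the largest difference, and Adamts and Adamtsl genes hold the lower values whose intervals leave out 0.

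The Mmp genes of chromosome 8 were dim, and most of those on other chromosomes were bright. In the RefSeq annotation of assembly GRCr8, 9 members follow each other on chromosome 8 in the order Mmp13, Mmp12, Mmp3, Mmp1, Mmp10, Mmp8, Mmp27, Mmp20 and Mmp7, with Mmp1b, which is not analysed here, as the only other protein-coding gene between them. They include the collagenases Mmp1, Mmp8 and Mmp13, which cut fibrillar collagen, the stromelysins Mmp3 and Mmp10, the matrilysin Mmp7, the macrophage elastase Mmp12 and the enamel protease Mmp20. All 9 lay under every array median on all 6 arrays, with levels from 0.78 to 1.80. Of the 11 Mmp genes on other chromosomes, 9 lay above the highest array median on every array, and Mmp9 and Mmp21 lay under it. Among all 28879 probe sets, 12459 lay above that median on every array and 13313 on no array.

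Promoter windows from RefSeq (GRCr8, 250 bases before to 50 bases after each gene's start) were at hand for 46 of the 67 members, among them all 9 genes of the chromosome 8 group and 5 of the other 11 Mmp genes. They were searched on both strands for TGANTCA, the binding motif of AP-1 (the Fos and Jun transcription factors), for the TATA box as TATAAA, and for the GC box as GGGCGG, bound by Sp1. In the chromosome 8 group 7 of 9 windows held the AP-1 motif, 8 of 9 the TATA box and 0 of 9 the GC box. In the other Mmp genes the counts were 0, 1 and 4 of 5. Of all 33469 promoter windows 7.33% held the AP-1 motif, 14.2% the TATA box and 33.1% the GC box. Of the 4 Timp windows 0 held the AP-1 motif, 0 the TATA box and 3 the GC box.

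Mmp13 and Mmp3 are shown for the chromosome 8 group and Mmp11 for the other Mmp genes, with Timp1 and Adamtsl4, the members of smallest unadjusted p. Their windows are chr8:12782579-12782878 on the + strand for Mmp13, chr8:12925031-12925330 on the + strand for Mmp3, chr20:12730034-12730333 on the + strand for Mmp11, chrX:3771073-3771372 on the - strand for Timp1 and chr2:185935747-185936046 on the - strand for Adamtsl4, all in GRCr8. Capitals mark matches to the 3 motifs on either strand, and in these windows no matches overlapped.
Mmp13: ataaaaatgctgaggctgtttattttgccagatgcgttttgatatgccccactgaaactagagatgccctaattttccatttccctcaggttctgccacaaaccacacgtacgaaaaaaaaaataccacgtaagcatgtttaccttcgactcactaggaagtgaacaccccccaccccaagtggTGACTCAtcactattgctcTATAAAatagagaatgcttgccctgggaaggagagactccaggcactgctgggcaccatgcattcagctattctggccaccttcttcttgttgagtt
Mmp3: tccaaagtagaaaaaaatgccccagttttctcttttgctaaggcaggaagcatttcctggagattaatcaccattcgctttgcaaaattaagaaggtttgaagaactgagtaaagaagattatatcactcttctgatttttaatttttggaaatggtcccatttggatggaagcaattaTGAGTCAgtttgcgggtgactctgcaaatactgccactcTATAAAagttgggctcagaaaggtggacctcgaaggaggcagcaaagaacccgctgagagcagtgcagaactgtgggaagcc
Mmp11: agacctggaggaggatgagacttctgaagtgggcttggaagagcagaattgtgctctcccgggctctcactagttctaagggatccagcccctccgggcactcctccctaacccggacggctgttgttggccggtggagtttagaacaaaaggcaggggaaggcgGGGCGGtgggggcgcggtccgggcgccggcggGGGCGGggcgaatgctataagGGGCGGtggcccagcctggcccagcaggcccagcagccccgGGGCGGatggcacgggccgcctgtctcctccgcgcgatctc
Timp1: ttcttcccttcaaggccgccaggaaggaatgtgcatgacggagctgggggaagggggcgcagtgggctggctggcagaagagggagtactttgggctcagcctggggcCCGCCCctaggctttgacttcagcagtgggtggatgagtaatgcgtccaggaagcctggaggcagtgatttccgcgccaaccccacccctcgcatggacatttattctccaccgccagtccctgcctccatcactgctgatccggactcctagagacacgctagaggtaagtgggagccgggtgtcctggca
Adamtsl4: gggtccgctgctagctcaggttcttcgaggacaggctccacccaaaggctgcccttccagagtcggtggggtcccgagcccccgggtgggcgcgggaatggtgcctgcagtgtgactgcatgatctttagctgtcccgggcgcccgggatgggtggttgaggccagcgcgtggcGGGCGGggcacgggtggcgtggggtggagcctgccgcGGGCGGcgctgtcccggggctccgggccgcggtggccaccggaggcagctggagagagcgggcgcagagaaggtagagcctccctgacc

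Counted from the gene's start, the AP-1 match of Mmp13 began at -66 and its TATA box at -47. In Mmp3 the AP-1 match began at -71 and the TATA box at -32. Mmp11 held 4 GC boxes and neither other motif, Timp1 held 1 GC box and Adamtsl4 held 2. A match is a run of letters and not a shown binding site, and a window without a match says only that these letters are not in it.

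**Figure D2:**
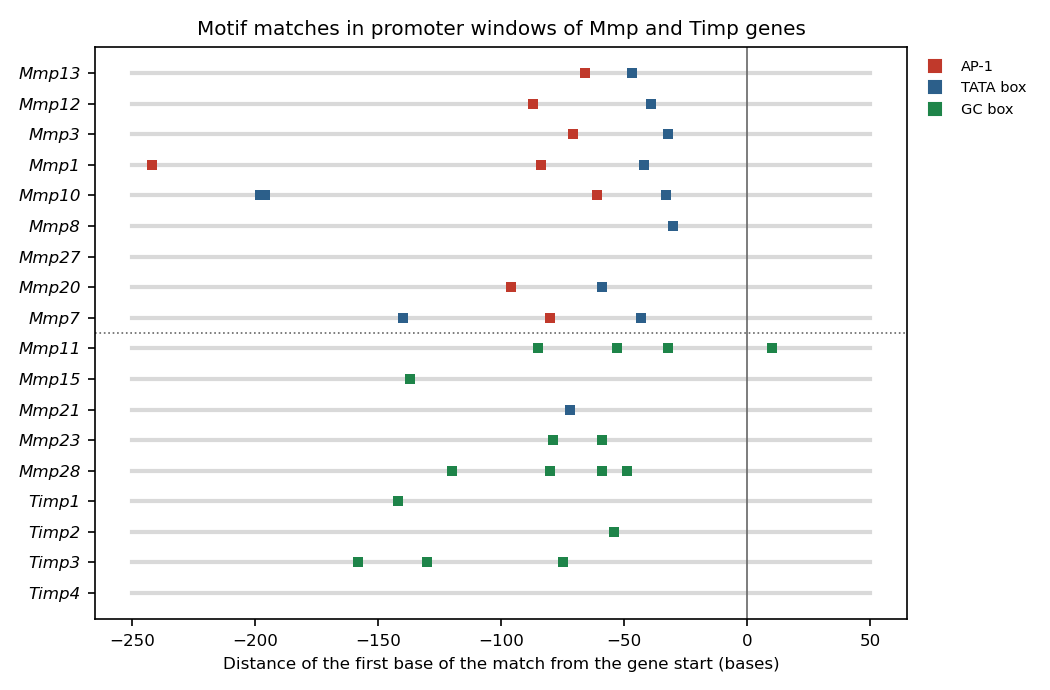
Matches to the AP-1, TATA box and GC box motifs in the RefSeq promoter windows of 14 Mmp and 4 Timp genes, by the distance of the match's first base from the gene's start in bases. The 9 genes above the dotted line lie side by side on chromosome 8: 7 hold an AP-1 match, 8 a TATA box and 0 a GC box.

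Among the gelatinases, Mmp2 was bright and Mmp9 was dim. Mmp2, which cuts denatured collagen and the collagen of basement membranes, had log2 levels of 9.72, 9.85 and 9.89 in SHR and 9.65, 9.72 and 9.27 in WKY. Each SHR array lay above each WKY array, by a narrow margin on SHR replicate 1, and the difference was 0.27 ± 0.17 (SE; limma adjusted p = 0.923). Without WKY replicate 3, the lowest array, it was 0.13. Mmp9, known from leukocytes, lay at 1.55, 1.54 and 1.84 in SHR and 1.46, 1.48 and 1.67 in WKY, so the strains overlapped under every array median. Of 6 markers of neutrophils, a cell type known to carry Mmp8 and Mmp9, 4 lay under the highest array median on every array. The sums were 11.2 to 13.5 in SHR and 12.9 to 15.1 in WKY, and all 5 tested markers had a difference below 0. S100a9, 1 of the 4 dim markers, did not overlap, at 1.47 to 1.52 in SHR and 1.92 to 2.10 in WKY. Mpo, the neutrophil myeloperoxidase, lay above the highest array median on all 6 arrays, at 5.97, 4.25 and 3.06 in SHR and 6.28, 4.35 and 4.49 in WKY. Camp lay close to that median, at 2.32 to 2.60 in SHR and 2.43 to 2.85 in WKY.

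The membrane-anchored enzymes overlapped between the strains. Mmp14, which activates the Mmp2 proenzyme together with Timp2, had levels of 6.86, 6.68 and 6.94 in SHR and 6.85, 6.58 and 6.41 in WKY, a difference of 0.21 with a 95% interval from -0.18 to 0.61. It was 0.11 without WKY replicate 3 and 0.33 without WKY replicate 1. Mmp16 lay at 4.07, 4.07 and 4.22 in SHR and 4.20, 4.74 and 4.43 in WKY. Only the lowest WKY array reached into the SHR range of Mmp16, and its difference of -0.34 ± 0.18 (SE; limma adjusted p = 0.923) had the smallest unadjusted p of the family, 0.0939. Without WKY replicate 2, the highest array, it was -0.20. Mmp17, held in the membrane by a lipid anchor, lay at 4.68, 5.17 and 5.22 in SHR and 4.95, 5.09 and 5.15 in WKY. Mmp23 lay at 6.62, 7.28 and 7.32 in SHR and 6.76, 6.96 and 7.08 in WKY. For both genes SHR replicate 1 was the lowest of the 6 arrays. Mmp15 went the other way on that array, with 4.66 against 3.94 and 3.62 on the other SHR arrays and 3.63 to 4.12 in WKY. Endothelial markers (4 of 6 listed genes measured) summed highest on the same array, at 24.6, as did the white adipocyte, fibroblast, macrophage and neuronal markers. The part of any of these cell types in the Mmp15 levels was not tested.

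Of the other Mmp genes above the array medians, Mmp11, a stromelysin, lay at 4.04, 4.56 and 4.54 in SHR and 4.48, 4.93 and 4.43 in WKY. Mmp19 and Mmp28 differed by -0.10 and -0.02 between the strains. Mmp3 and Mmp12, the chromosome 8 genes best known from atherosclerotic lesions, lay at 1.16 to 1.39 and 1.36 to 1.80 in SHR, and at 1.03 to 1.25 and 1.47 to 1.50 in WKY, with differences of 0.13 and 0.06 that describe dim signals and not amounts of RNA. In all, 7 of the 15 tested Mmp genes had a difference above 0 and 8 below, from -0.34 to 0.27. At an unadjusted p under 0.05 there were 0, beside 5.55% of all tested probe sets.

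**Figure D3:**
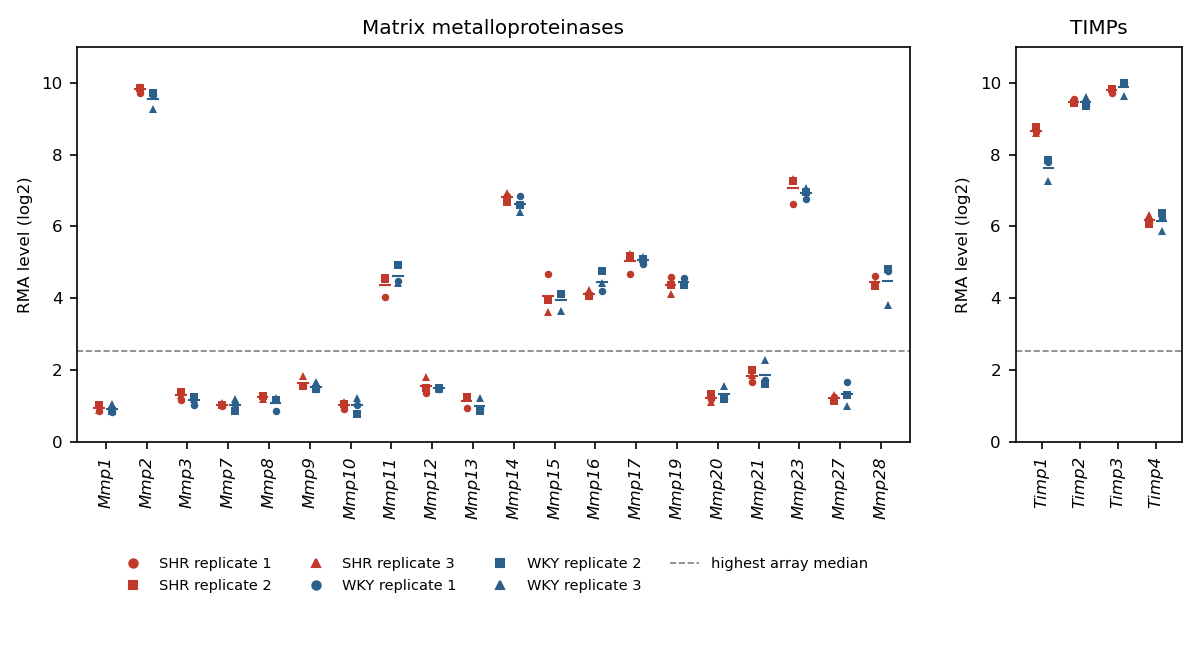
RMA log2 level of 20 Mmp and 4 Timp genes on each array, SHR left in red and WKY right in blue, with a short line at each strain's mean (n = 3). The dashed line is the highest array median, 2.52. All 9 Mmp genes of the chromosome 8 group lie under it, and Timp1 is the member whose strains stand farthest apart.

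Of the 4 inhibitors, Timp1 lay higher in SHR and the other 3 differed by less than 0.1 on the log2 scale. Timp1 (probe set 17875665), a secreted inhibitor of most metalloproteinases that many cell types induce, had levels of 8.62, 8.77 and 8.59 in SHR and 7.78, 7.85 and 7.26 in WKY. The SHR arrays lay close together and well above all WKY arrays. The means were 8.66 ± 0.10 in SHR and 7.63 ± 0.33 in WKY (SD, n = 3 each), a difference of 1.03 ± 0.19 (SE), or a 2.04-fold ratio, with a 95% interval from 0.58 to 1.48, an unadjusted p of 0.000909 and a limma adjusted p of 0.277. With 1 array left out the difference ran from 0.84, without WKY replicate 3, to 1.14, without WKY replicate 2. With fitted array weights it was 0.91 (limma adjusted p = 0.0502), and over all alternatives the adjusted p ran from that value to 0.992, without SHR replicate 2. A fit that took the mean of the white adipocyte markers into account gave 1.05 (limma adjusted p = 0.292).

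Timp2, which inhibits Mmp2 and also helps to activate it, had levels of 9.54, 9.45 and 9.43 in SHR and 9.40, 9.36 and 9.62 in WKY. Timp3, which binds to the matrix and also inhibits Adam17 and ADAMTS enzymes, had levels of 9.72, 9.84 and 9.82 in SHR and 10.01, 9.98 and 9.64 in WKY. Timp4 had levels of 6.13, 6.05 and 6.32 in SHR and 6.24, 6.37 and 5.87 in WKY. The strains overlapped for all 3, with differences of 0.02 (95% interval -0.32 to 0.36), -0.09 (-0.45 to 0.28) and 0.01 (-0.41 to 0.43).

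Of the 8 ADAM genes grouped here as having a proteolytic site and expression in somatic tissue, 5 lay above the highest array median on every array. The strains overlapped for all 8. Adam1a was counted among these 5, at 3.18 to 3.44 in SHR and 3.12 to 3.40 in WKY. Adam9, a sheddase of many cell types, lay at 7.14, 7.07 and 7.15 in SHR and 7.20, 7.25 and 6.96 in WKY, and the interval of its difference was -0.35 to 0.33. Adam17, which releases tumour necrosis factor and ligands of the epidermal growth factor receptor, had levels of 6.56, 6.56 and 6.82 in SHR and 6.66, 6.66 and 5.82 in WKY. WKY replicate 3, the array of lowest weight, stood low for this gene: the difference was 0.27 with it and -0.01 without it. Adam15, which binds integrins, lay at 5.98, 5.77 and 5.75 in SHR and 6.09, 5.98 and 5.45 in WKY. Adam19, known from heart development, lay at 4.81, 3.94 and 4.06 in SHR and 4.39, 4.22 and 4.02 in WKY, highest on SHR replicate 1. Adam10, the other main sheddase, is not analysed here. Adam8, found on leukocytes, lay under the array medians at 1.49, 1.38 and 1.74 in SHR and 1.52, 1.22 and 1.52 in WKY.

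Adam11, Adam22 and Adam23 have lost the catalytic site and are known as adhesion proteins of the nervous system. Adam23 had levels of 5.22, 2.74 and 2.93 in SHR and 3.59, 3.24 and 2.85 in WKY. Its mean difference of 0.40 ± 0.62 (SE; limma adjusted p = 0.946) was -0.39 without SHR replicate 1, the array with high neuronal markers, and 0.85 without SHR replicate 2. The part of neuronal tissue in this level was not tested. Adam11 lay at 0.93, 1.24 and 1.36 in SHR and 1.09, 0.95 and 1.94 in WKY, under the array medians, and Adam22 at 2.98 to 3.49 in SHR and 3.15 to 3.30 in WKY.

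The 13 ADAM genes grouped here as known mainly from the reproductive tract, such as Adam2 and Adam7, did not include Adam1a. All 13 lay under the highest array median on every array, with levels from 0.44 to 2.24, and 8 of them were too dim to be tested. Adam4, the brightest of them, lay at 2.02, 1.73 and 2.01 in SHR and 1.72, 1.40 and 2.11 in WKY. Over the family 8 of 15 tested genes had a difference above 0 and 7 below. Of these genes 0 had an unadjusted p under 0.05, beside 5.55% of all tested probe sets.

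**Figure D4:**
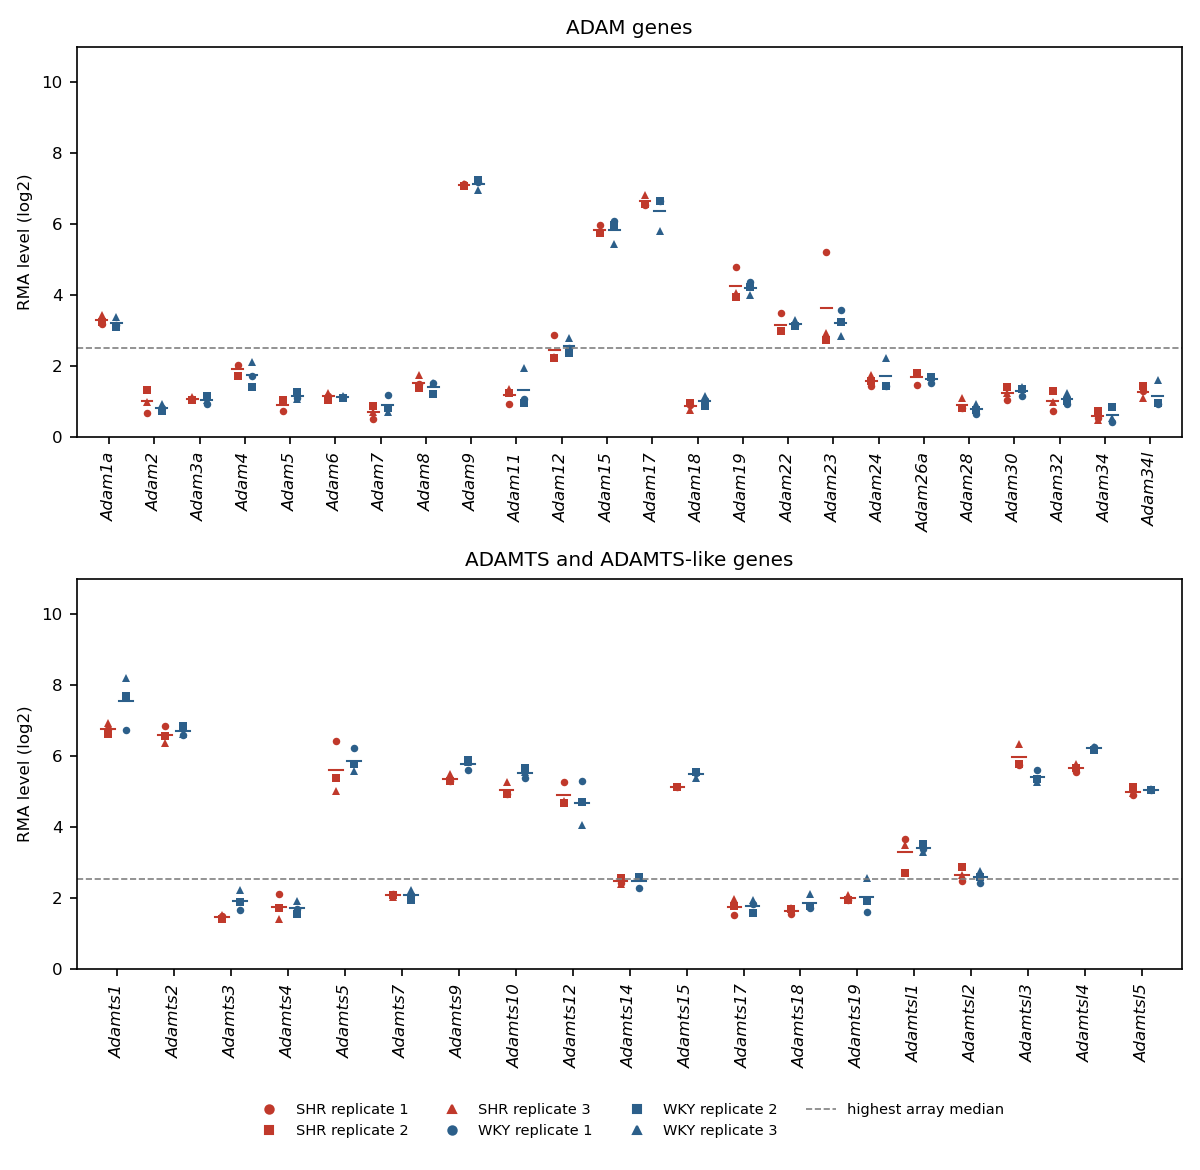
RMA log2 level of 24 Adam genes (top) and of 14 Adamts and 5 Adamtsl genes (bottom) on each array, SHR left in red and WKY right in blue, with a short line at each strain's mean (n = 3) and a dashed line at the highest array median, 2.52. Adam23 stands high on SHR replicate 1, and Adamts9, Adamts10, Adamts15 and Adamtsl4 lie lower on each SHR array than on any WKY array.

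The ADAMTS genes held 11 differences below 0 among 14, beside 11257 among all 21659 tested probe sets, with a median of -0.16 and 4 genes at an unadjusted p under 0.05, all lower. That is 28.6% of the family, beside 5.55% of all tested probe sets, of which 2.54% were lower in SHR. No gene of the family passed in limma, and the smallest adjusted p was 0.765. Several of the 11 signs hung on 1 array. Without WKY replicate 3, Adamts14, Adamts17 and Adamts19 rose above 0, to 0.02, 0.06 and 0.23, and Adamts12 fell to -0.11. Without SHR replicate 3, Adamts2, Adamts5 and Adamts14 rose to 0.02, 0.05 and 0.01. The proteases that cut the proteoglycans versican and aggrecan held 2 of the 4 genes at an unadjusted p under 0.05. Adamts15 had levels of 5.12, 5.12 and 5.14 in SHR and 5.52, 5.54 and 5.39 in WKY. Adamts9 had levels of 5.31, 5.29 and 5.48 in SHR and 5.60, 5.88 and 5.82 in WKY. For both the SHR arrays lay under all WKY arrays, and the differences were -0.36 ± 0.13 and -0.41 ± 0.15 (SE; limma adjusted p = 0.860 for each).

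Adamts1, a versican-cutting enzyme, had the widest difference of the family, -0.77 ± 0.35 (SE; limma adjusted p = 0.921). Its levels were 6.76, 6.62 and 6.94 in SHR and 6.72, 7.70 and 8.21 in WKY. WKY replicate 1 lay among the SHR arrays while the other 2 WKY arrays lay above them, and the difference was -1.18 without WKY replicate 1 and -0.44 without WKY replicate 3. Adamts5, which also lies on chromosome 11 and is a main aggrecan-cutting enzyme of cartilage, did not follow the same order, with 6.43, 5.39 and 5.02 in SHR and 6.23, 5.78 and 5.57 in WKY. The white adipocyte markers averaged 7.94, 5.94 and 4.29 on these SHR arrays and 7.65, 6.25 and 6.29 on these WKY arrays, highest where Adamts5 was highest in each strain. Fibroblast markers averaged 8.86, 8.20 and 7.42 in SHR and 8.60, 8.54 and 8.31 in WKY, in the order of Adamts5 within each strain. Endothelial and macrophage markers were also highest on SHR replicate 1 and WKY replicate 1, and smooth muscle markers were lowest there. The part of any of these cell types in the Adamts5 level was not tested. The Adamts5 difference was -0.24 (limma adjusted p = 0.946) and was 0.02 in the fit that took the mean of the white adipocyte markers into account (limma adjusted p = 0.982). It was -0.65 without SHR replicate 1 and 0.05 without SHR replicate 3. Adamts4 lay at 2.11, 1.72 and 1.41 in SHR and 1.69, 1.54 and 1.91 in WKY, under every array median.

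Adamts10, which binds fibrillin microfibrils, had levels of 4.92, 4.93 and 5.26 in SHR and 5.38, 5.66 and 5.54 in WKY. Each SHR array lay under each WKY array, and the difference of -0.50 ± 0.16 (SE; limma adjusted p = 0.765) stayed between -0.61 and -0.43 with 1 array left out. Among the enzymes that trim the amino end of procollagens, Adamts2 lay at 6.85, 6.56 and 6.36 in SHR and 6.60, 6.85 and 6.63 in WKY, with overlap. Adamts3, which also processes the lymphatic growth factor Vegfc, lay at 1.48, 1.40 and 1.52 in SHR and 1.66, 1.88 and 2.22 in WKY. The strains of Adamts3 did not overlap, but all 6 levels lay under the array medians, so this difference of -0.46 is between dim signals. Adamts18, equally dim, also did not overlap, at 1.54 to 1.70 in SHR and 1.72 to 2.10 in WKY. Adamts7, an enzyme that cuts cartilage oligomeric matrix protein and is known from vascular genetics, lay at 2.11, 2.09 and 2.03 in SHR and 2.08, 1.93 and 2.21 in WKY, and Adamts12, its closest relative, overlapped at 4.68 to 5.26 in SHR and 4.04 to 5.29 in WKY.

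The 5 ADAMTS-like genes held a difference in each direction. Adamtsl4 (probe set 17759539), a protein that binds fibrillin and is known from inherited displacement of the eye lens, had levels of 5.54, 5.67 and 5.77 in SHR and 6.25, 6.16 and 6.27 in WKY. The gap between the strains was wider than the spread within either one, with means of 5.66 ± 0.12 in SHR and 6.23 ± 0.06 in WKY (SD, n = 3 each). The difference of -0.57 ± 0.14 (SE) had an unadjusted p of 0.0044 and a limma adjusted p of 0.496, and it ran from -0.62 to -0.50 with 1 array left out. Adamtsl3, a secreted matrix glycoprotein, lay on the other side, with 5.75, 5.78 and 6.34 in SHR and 5.60, 5.34 and 5.26 in WKY. No SHR array lay in the WKY range, the difference was 0.56 ± 0.21 (SE; limma adjusted p = 0.852), and it was 0.37 without SHR replicate 3.

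The other ADAMTS-like genes overlapped. Adamtsl5, which also binds fibrillin, lay at 4.90, 5.14 and 4.95 in SHR and 5.04, 5.05 and 5.06 in WKY. Adamtsl1 lay at 3.66, 2.70 and 3.49 in SHR and 3.37, 3.52 and 3.29 in WKY, with the lowest level on SHR replicate 2. Adamtsl2, which binds the latent TGF-beta binding protein Ltbp1, lay near the array medians at 2.47, 2.86 and 2.63 in SHR and 2.43, 2.59 and 2.77 in WKY.

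**Figure D5:**
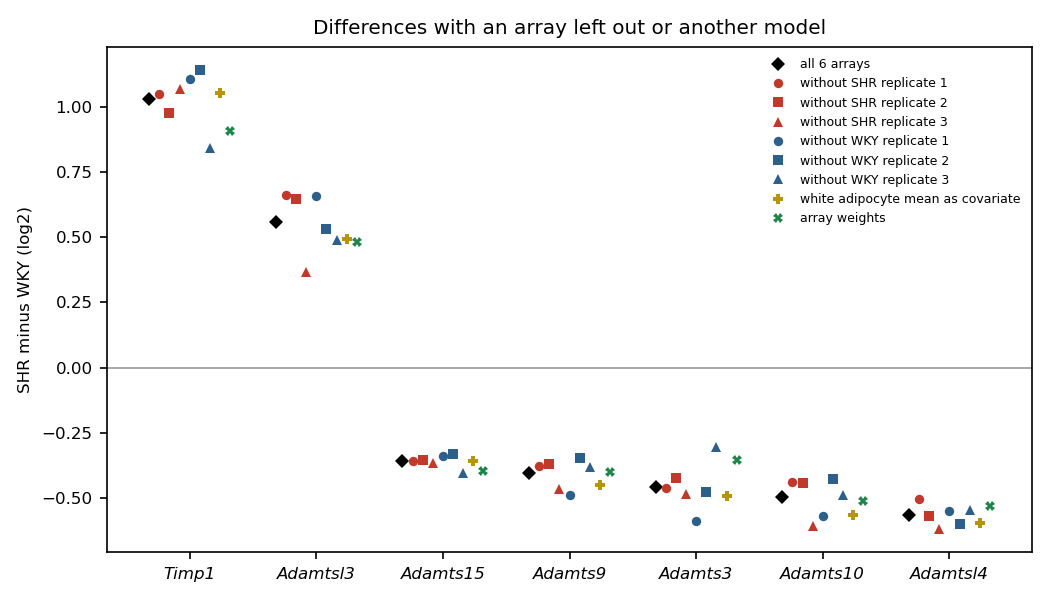
Difference in log2 level, SHR minus WKY, of the 7 members with an unadjusted p under 0.05, with all 6 arrays, with each array left out, with the white adipocyte marker mean in the model and with array weights. Each gene stays on its side of 0 in these fits. The strains do not overlap for any of the 7, so leaving out or weighting arrays could not have reversed a sign. Timp1 runs from 0.84 to 1.14 when 1 array is left out.

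The genes that act with these proteases were taken as lists, in which 0 genes passed. The lists were chosen with earlier results of these data known, so their shares are a description and not a test. Of 15 measured activators, inhibitors and partners of Mmp enzymes, 13 had a difference above 0, beside 10402 of all 21659 tested probe sets. The median was 0.22, beside -0.01 over all tested probe sets. Without WKY replicate 3, Plat, Pcsk6, Serpinf2 and Lcn2 fell below 0, Lcn2 to -0.39, and Plg rose to 0.05. In the list 1 gene had an unadjusted p under 0.05, which is 6.67% beside 5.55% of all tested probe sets. That gene was Cd44, a hyaluronan receptor that holds Mmp9 at the cell surface, with 3.80, 3.61 and 3.71 in SHR and 3.29, 3.25 and 3.08 in WKY (limma adjusted p = 0.634). Pcsk5, a proprotein convertase, also lay higher on each SHR array, at 6.12, 6.50 and 6.68 in SHR and 6.05, 6.05 and 5.98 in WKY. Reck, a membrane-bound inhibitor of Mmp2, Mmp9 and Mmp14, overlapped at 7.52 to 7.75 in SHR and 7.02 to 7.58 in WKY.

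Of 17 measured proteins that ADAM enzymes release, 3 were higher and 1 lower at an unadjusted p under 0.05, and the median was 0.02. That is 23.5% of the list beside 5.55% of all tested probe sets. Cxcl16, a chemokine released by Adam10 and Adam17, had levels of 6.98, 6.91 and 6.89 in SHR and 6.05, 5.78 and 5.48 in WKY. Vcam1, an adhesion molecule of activated endothelium and smooth muscle, had levels of 9.60 to 9.88 in SHR and 7.92 to 9.07 in WKY. Both lay higher on each SHR array, by 1.15 and 1.10 (limma adjusted p = 0.136 and 0.622), and without WKY replicate 3 by 1.01 and 0.73. Hbegf, a ligand of the epidermal growth factor receptor, differed by 0.45 and Tgfa, another such ligand, by -0.54 at levels under the highest array median. None of the 7 measured partners of Adam10 and Adam17, such as Rhbdf2, which carries Adam17 to the cell surface, had an unadjusted p under 0.05 (median -0.02).

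Of 17 measured substrates and partners of ADAMTS proteins, 3 were higher and 0 lower at an unadjusted p under 0.05, with a median of -0.0025. That is 17.6% of the list beside 5.55% of all tested probe sets, of which 3.01% were higher in SHR. Fn1, fibronectin, had levels of 10.90, 10.71 and 11.04 in SHR and 10.15, 10.22 and 9.52 in WKY, all SHR arrays above all WKY arrays. Sdc4, a syndecan of the cell surface, differed by 0.45, and Acan, aggrecan, by 0.61 between levels of 1.79 to 1.95 in SHR and 1.24 to 1.31 in WKY that lie under the array medians. Vcan, versican, overlapped at 7.94 to 8.48 in SHR and 6.86 to 8.01 in WKY, and Fbn1, fibrillin, at 8.86 to 9.06 in SHR and 8.99 to 9.13 in WKY.

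Of 14 measured transcription factors known to act on metalloproteinase promoters, 1 was higher and 2 were lower at an unadjusted p under 0.05, with a median of -0.08. That is 21.4% of the list beside 5.55% of all tested probe sets. Jun, a subunit of AP-1, had levels of 6.77, 6.59 and 7.17 in SHR and 7.31, 7.84 and 7.98 in WKY. Fos, also a subunit of AP-1, had levels of 5.02, 5.20 and 5.87 in SHR and 6.90, 8.20 and 5.03 in WKY, where WKY replicate 3 lay in the SHR range and the other WKY arrays above it. Fosb, another AP-1 subunit, had levels of 3.61, 3.40 and 3.34 in SHR and 3.65, 4.47 and 4.19 in WKY. Runx2, a factor of bone cells, had levels of 3.93, 4.26 and 4.73 in SHR and 3.41, 3.77 and 3.10 in WKY. The strains did not overlap for Jun and Fosb, lower in SHR, or for Runx2, higher in SHR, and the limma adjusted p-values were 0.575, 0.798 and 0.636.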

How the data were processed

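RMA was run by the authors in Affymetrix Expression Console (version 1.2.1, per the submitters' processing notes), and the deposited values are log2 levels, 1 for each probe set and array. RMA is defined on a log2 scale. Which summarization level and genome build the probe sets follow is not given in the sources used here. Titles gave strain and replicate. Entrez identifiers matched 67 of 67 members to GRCr8 with unchanged symbols, and 0 members had a copy of identical values.

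Testing used the 21659 of 28879 probe sets whose mean reached the array set's 25th percentile (log2 level 1.17). The fit was limma (version 3.58.1, R 4.3.3; lmFit, then eBayes), with strain as its only term, two-sided, and Benjamini-Hochberg adjustment over every tested probe set. Differences are SHR minus WKY, and intervals are the fit's 95% intervals. The fit was tested on simulated data.

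Members and lists were chosen with earlier results of these data known. Values on every array are given for the Timp genes, for 10 genes known from vascular work, and in each other family for the 4 brightest tested members and the 5 of smallest unadjusted p. Further genes were named after their values were seen. The brightest probe set stood for a listed gene with several. Alternatives changed the filter, scaling, model, threshold and arrays. The number of arrays limits the precision.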

Additional observations from a re-analysis of the deposited data

How the results depend on the processing

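No member passed under any of the 15 alternatives, and the smallest limma adjusted p was 0.0502, for Timp1 with array weights. Over all probe sets 15 passed, against 65 with array weights, 115 without both SHR replicate 1 and WKY replicate 3, 30 at an adjusted p under 0.1, 3 with the replicate number as a block, and 2 to 5 with 1 array left out. The replicate numbers were not shown to pair the rats: deviations of same-numbered arrays correlated at 0.35, -0.08 and 0.23, and not every array correlated best with its own number. The block left 0 members passing and 7 at an unadjusted p under 0.05, beside 6.51% of all tested probe sets. Members at an unadjusted p under 0.05 numbered 7 of 53 with all arrays, beside 5.55% of all tested probe sets. With 1 array left out they numbered 2 to 8, beside 3.57% to 6.76%. With array weights they numbered 7, beside 10.4%. The 7 members of the main fit kept their sign in every fit that tested them. Their strains did not overlap, so leaving out or weighting arrays could not have reversed it. Adam23 turned to -0.58 without both SHR replicate 1 and WKY replicate 3, at an unadjusted p of 0.0168, and ran from -0.39 to 0.85 with 1 array left out. The cause was not tested. Of 53 tested members 34 changed sign in at least 1 alternative, none from a main difference beyond 0.40, and apart from that of Adam23 these changes were between values with an unadjusted p above 0.05. Of the list genes, Cxcl16 passed with array weights (1.03, limma adjusted p = 0.0338). The median difference of the members ran from -0.03 to 0.02. Members under the array medians have no shown level above background.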

Other observations

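In the RefSeq annotation of GRCr8, Timp1, Timp3 and Timp4 each lie inside a synapsin gene, Syn1, Syn3 and Syn2, which encode proteins of synaptic vesicles. These host genes were chosen after the values were seen. Syn1 had log2 levels of 2.77, 1.71 and 1.38 in SHR and 1.37, 1.04 and 2.62 in WKY, with overlap, and lay under the array medians on 4 of the 6 arrays. Syn2 had levels of 5.17, 2.18 and 2.82 in SHR and 2.68, 2.66 and 2.88 in WKY, high on SHR replicate 1, the array with high neuronal markers, and Timp4 lay at 6.13 on that array and 6.05 to 6.32 over the SHR arrays. Syn3 lay at 2.10 to 2.59 in SHR and 2.38 to 2.70 in WKY, near the array medians.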
